A study of Mus musculus with 29 samples.

Results

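Expression of 10 genes that mark T cells and natural killer (NK) cells was followed in whole mouse liver. They were taken by name from the 55421 genes of the count table, and each of the 10 names matched 1 row. The members were Cd3d, Cd3e, Cd3g, Cd4, Cd8a, Cd8b1, Nkg7, Ccl5, Gzma and Gzmk. Polyadenylated RNA of 29 livers was sequenced in 6 groups, and counts were at hand for 27 of them. Young mice were C57BL6/N, 5 months old by the labels and given vehicle (methylcellulose in phosphate buffer), with 5 females and 4 males counted. Old mice were C57BL/6J, females at 20 months and males at 24 months, and received either vehicle (4 females, 4 males) or HDM201 (5 females, 5 males). HDM201 is an inhibitor of MDM2, the ubiquitin ligase that keeps p53 low, and was given by oral gavage at 10 mg/kg daily for 14 days. Age and substrain therefore cannot be told apart, old females and old males differed in age, and each count is of 1 animal.

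T cells recognise antigen through a T cell receptor whose signal is passed inward by the CD3 chains. CD4 and CD8 are coreceptors that split T cells into helper and cytotoxic types, and granzymes, chemokines and granule proteins are the effector products shared by cytotoxic T cells and NK cells. The liver is home to resident lymphocytes that sit in its sinusoids among hepatocytes and Kupffer cells. In bulk RNA a change in the number of such cells and a change in RNA per cell cannot be told apart.

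The libraries held 16485900 to 23570458 counts, and the 10 members together held 30 to 759 of them per mouse, which is 0.000169% to 0.00455% of the counts. Xist was at 274.6 CPM (counts scaled to library totals times TMM factors) or more in females and at most 0.318 CPM in males, Ddx3y was at 0 in every female and at 41.3 CPM or more in males, and Alb was at 59478 CPM or more in all livers. Old HDM201 male 1 was the highest of the 27 mice for 10 of the 10 members. Some results in that group are therefore also given without it, and the others include it.

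Several members lie side by side in the genome, in the mm10 build as annotated by GENCODE. Cd3g (chr9:44969572-44980431, minus strand), Cd3d (chr9:44981786-44987339, plus strand) and Cd3e (chr9:44998740-45009627, minus strand) form a cluster, and Cd3g and Cd3d start 1355 bases apart and point away from each other. Cd8b1 (chr6:71322788-71337494, plus strand) and Cd8a (chr6:71373427-71379173, plus strand) are separated by 35932 bases. Cd4 lies far along the same chromosome (chr6:124864692-124888221, minus strand). Gzma (chr13:113093825-113100981, minus strand) and Gzmk (chr13:113171608-113225908, minus strand) are 70626 bases apart, whereas Nkg7 (chr7:43437073-43438249, plus strand) and Ccl5 (chr11:83525778-83530518, minus strand) stand alone. Cd3e overlaps the annotated genes Gm48719 and Gm48720, and Gzmk overlaps Esm1. Strand use in the counting is not given in the sources used here, so reads of these overlaps could not be assigned with certainty.

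Promoter sequences, from 250 bases before to 50 after the start site, were matched in RefSeq (GRCm38.p6) for 7 of the 10 members, with no entry used for Cd4, Cd8b1 and Ccl5. 4 of them are shown: the paired Cd3g and Cd3d promoters because those genes point away from each other, Nkg7 because it was called in 2 comparisons, and Gzmk because it was nearly uncounted in young livers. Capitals mark matches, on either strand, to CAGNTG (the E box bound by E proteins), GGAAGT (ETS factors), TGTGGT (RUNX factors) and GGTGTGA (T-box factors).
Cd3g (chr9:44980382-44980681, minus strand): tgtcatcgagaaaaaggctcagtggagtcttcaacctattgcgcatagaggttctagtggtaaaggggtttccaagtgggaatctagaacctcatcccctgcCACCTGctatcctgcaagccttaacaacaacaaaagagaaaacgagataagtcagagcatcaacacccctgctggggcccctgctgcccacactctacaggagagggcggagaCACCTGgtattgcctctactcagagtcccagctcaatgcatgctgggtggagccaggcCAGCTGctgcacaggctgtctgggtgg
Cd3d (chr9:44981536-44981835, plus strand): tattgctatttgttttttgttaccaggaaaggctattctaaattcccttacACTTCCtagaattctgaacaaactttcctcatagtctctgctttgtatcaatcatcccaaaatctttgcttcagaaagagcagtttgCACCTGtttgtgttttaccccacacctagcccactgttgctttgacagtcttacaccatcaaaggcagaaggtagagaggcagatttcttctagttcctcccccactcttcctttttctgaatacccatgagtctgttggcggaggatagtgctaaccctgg
Nkg7 (chr7:43436888-43437187, plus strand): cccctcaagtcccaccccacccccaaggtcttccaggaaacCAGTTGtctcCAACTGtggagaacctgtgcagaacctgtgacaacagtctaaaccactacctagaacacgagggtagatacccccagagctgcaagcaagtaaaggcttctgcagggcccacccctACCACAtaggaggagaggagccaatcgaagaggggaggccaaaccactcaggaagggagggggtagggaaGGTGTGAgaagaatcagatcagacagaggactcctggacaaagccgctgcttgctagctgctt
Gzmk (chr13:113180916-113181215, minus strand): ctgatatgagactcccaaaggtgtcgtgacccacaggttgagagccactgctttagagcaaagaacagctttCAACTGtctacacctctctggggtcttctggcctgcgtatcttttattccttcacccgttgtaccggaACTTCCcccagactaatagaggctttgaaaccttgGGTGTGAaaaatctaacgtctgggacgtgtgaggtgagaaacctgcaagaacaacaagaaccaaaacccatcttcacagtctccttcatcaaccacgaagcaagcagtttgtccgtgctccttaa
An E box was found in 7 of the 7 member promoters, and 51.4% of 32851 RefSeq promoters of that length held one. The ETS letters were found in Cd3d, Cd3e and Gzmk (3 of 7, against 23.8% of all promoters), and the RUNX letters in Nkg7 and Gzma (2 of 7, against 16.8%). The T-box letters occurred in Nkg7 and Gzmk (2 of 7, against 3.98%). Such matches describe the letters only. The Gzmk start in RefSeq lies inside the longer gene that GENCODE annotates.

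Scaled to the length of the merged exons, Ccl5, a chemokine that draws T cells and is made by activated cytotoxic cells, had the highest level, at 3.24 ± 2.95 CPM per kb (SD over 27 mice). Nkg7, a membrane protein of cytotoxic granules, followed at 1.23 ± 1.21 CPM per kb, and Ccl5 was above Nkg7 in 27 of 27 mice. Gzma, a granule protease, came next at 0.403 ± 0.292 CPM per kb and lay below Nkg7 in 26 of 27 mice. The next 6 genes were within their spread of each other, from Cd8a at 0.275 ± 0.347 to Cd3e at 0.205 ± 0.149 CPM per kb. Neighbours among these 6 changed places often, with Cd8a above Cd3d in 10 of 27 mice and Cd4 above Cd3e in 15 of 27. Gzmk, a granzyme of memory-type T cells, was lowest at 0.114 ± 0.160 CPM per kb and lay below Cd3e in 24 of 27 mice.

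**Figure D1:**
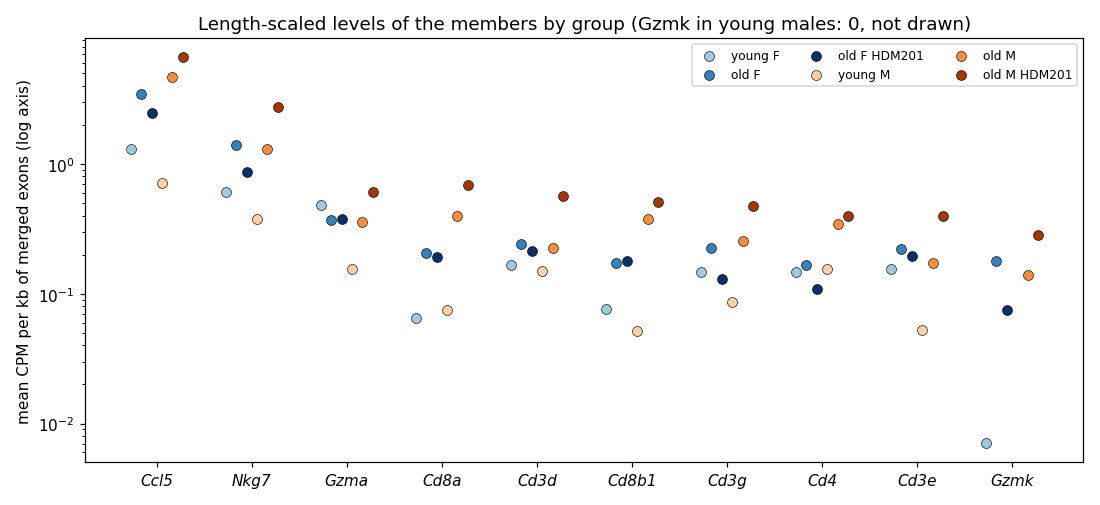
Mean level of each member in the 6 groups, in CPM per kb of merged exons on a log axis, with 1 point per group and genes ordered by their mean over 27 mice. Ccl5 (3.24 CPM per kb) and Nkg7 (1.23 CPM per kb) stand above the other genes, and old HDM201 males give the highest point for 10 of the 10 genes (6 without old HDM201 male 1), while Gzmk in young males, at 0, is not drawn.

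Across groups, the old HDM201 males had the highest mean CPM for 10 of the 10 members, and the young males had the lowest for 8. Without old HDM201 male 1, that group stayed highest for 6 members, old vehicle males were highest for Cd4, Cd8b1 and Ccl5, and young females for Gzma. Of the 50 pairs of groups that are next to each other in these orders, 46 overlapped in their mice. Summed over the members, the level was 4.66 ± 1.10 CPM in young females, 8.98 ± 1.56 in old females on vehicle and 6.65 ± 1.51 under HDM201. It was 2.93 ± 0.757 CPM in young males, 11.6 ± 5.78 in old males on vehicle and 18.9 ± 13.3 under HDM201.

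**Figure D2:**
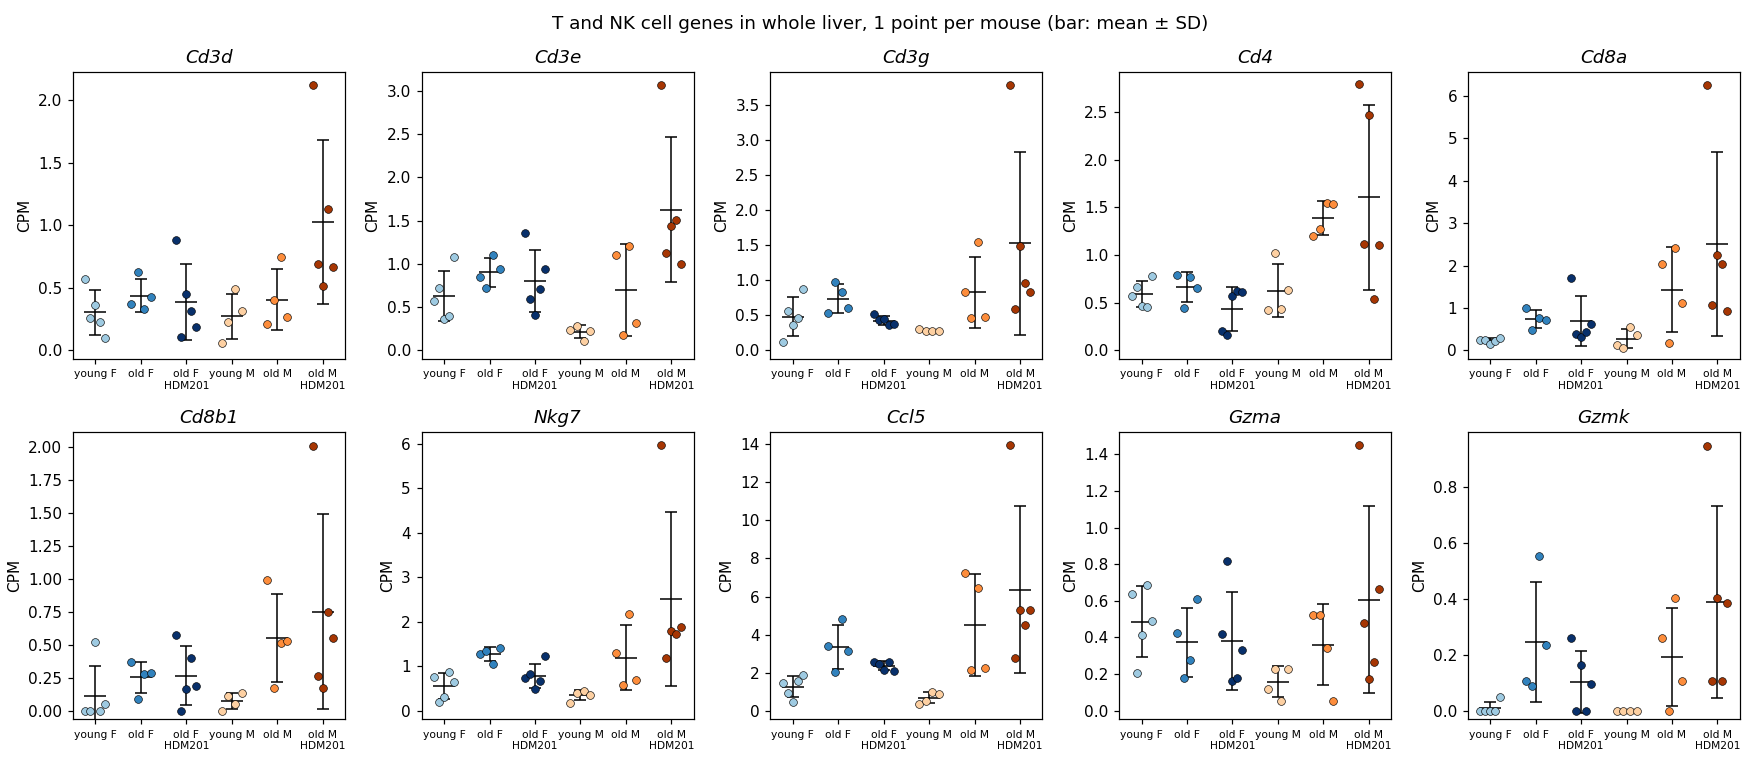
CPM of each member in every mouse with counts (points) with the group mean and SD (bars), for young vehicle, old vehicle and old HDM201 females and males. One old HDM201 male lies above all other mice in every panel, at 14.0 CPM for Ccl5 and 6.25 CPM for Cd8a.

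The CD3 chains were low everywhere. Cd3e, which encodes CD3 epsilon, had 9, 14, 7, 7 and 22 counts in the young females, 16, 16, 20 and 20 in their old vehicle counterparts and 26, 11, 10, 16 and 20 under HDM201. In males it had 4, 5, 2 and 5 counts in young livers, 21, 3, 21 and 6 in old livers on vehicle and 55, 21, 25, 28 and 18 under HDM201. Every old HDM201 male was above every young male, while the old vehicle males fell into a high and a low pair. Cd3g (CD3 gamma) had 2 to 18 counts in the young females, 10 to 22 in their old vehicle counterparts and 8 to 11 under HDM201. In males Cd3g had 5, 5, 5 and 6 counts in young livers, 16, 8, 27 and 9 in old livers on vehicle and 68, 11, 26, 18 and 15 under HDM201, so that both old groups lay above the young. Cd3d (CD3 delta) had 38, 13, 9, 21 and 12 counts in the old HDM201 males and 1 to 17 in the mice of the other 5 groups.

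Among the coreceptors, Cd8a encodes the alpha chain of CD8. It had 4, 5, 3, 4 and 6 counts in the young females, 19, 11, 14 and 15 in their old vehicle counterparts and 33, 7, 8, 10 and 13 under HDM201. In males it had 2, 1, 10 and 8 counts in young livers, 39, 3, 42 and 21 in old livers on vehicle and 112, 20, 39, 38 and 17 under HDM201. In females each old group lay wholly above the young group, whereas in males old vehicle male 3 fell among the young. Cd8b1, the beta chain, was at 0 in 3 of 5 young females and 1 of 4 young males, with 11 and 6 counts in total in those groups, against 41 in old males on vehicle and 68 under HDM201. Cd4 had 8 to 16 counts in the young females, 10 to 15 in their old vehicle counterparts and 3 to 14 under HDM201, which overlapped throughout. In males Cd4 had 7, 18, 8 and 14 counts in young livers, 23, 22, 27 and 29 in old livers on vehicle and 50, 21, 43, 10 and 20 under HDM201.

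Of the effector genes, Ccl5 was the best counted. It had 23, 18, 9, 27 and 38 counts in the young females, 64, 45, 87 and 67 in their old vehicle counterparts and 49, 45, 53, 58 and 44 under HDM201. In males Ccl5 had 6, 9, 18 and 19 counts in young livers, 138, 37, 112 and 42 in old livers on vehicle and 250, 52, 92, 84 and 96 under HDM201. In both sexes no old mouse was as low as any young mouse of its sex. Nkg7 had 12, 4, 6, 15 and 13 counts in the young females, 24, 30, 19 and 30 in their old vehicle counterparts and 14, 15, 12, 15 and 26 under HDM201. In males Nkg7 had 3, 7, 8 and 8 counts in young livers, 25, 10, 38 and 13 in old livers on vehicle and 107, 22, 31, 32 and 34 under HDM201. Gzma showed no such order in females, with 4 to 12 counts in young, 4 to 13 in old vehicle and 4 to 15 in old HDM201 livers. Gzmk had 0 counts in 4 of 5 young females, 1 count in the other, and 0 in all 4 young males, where a floor of 3 counts over the group applies. Old females had 2, 2, 10 and 5 counts of it on vehicle and 5, 0, 4, 0 and 2 under HDM201. Old males had 5, 0, 7 and 2 counts on vehicle and 17, 2, 7, 2 and 7 under HDM201. Of these, 2 HDM201 females and 1 vehicle male were at 0.

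The question of ageing was addressed by old against young vehicle livers. In females 3 of the 10 members were called higher in old livers and none lower by edgeR's quasi-likelihood test (Benjamini-Hochberg FDR under 0.05 over all genes tested), where 31.8% of 14233 genes were called and 16.8% were called higher. Cd8a rose by 1.62 ± 0.34 (log2 fold change ± SE, FDR = 0.0033), Ccl5 by 1.43 ± 0.34 (FDR = 0.0069) and Nkg7 by 1.23 ± 0.35 (FDR = 0.018). A further 3 members were tested and not called, with Cd3g at 0.61 ± 0.41 (FDR = 0.28), Cd3e at 0.52 ± 0.34 (FDR = 0.26) and Cd4 at 0.18 ± 0.30 (FDR = 0.68). The other 4 fell below the filter on low counts. In CPM no overlap was seen for Cd8a, Nkg7, Ccl5 and Gzmk, 4 of 10 members higher in old livers, against 12.5% of the genes tested. Gzmk was itself untested, and Cd8a, with at most 6 counts in any young female, passed the filter through the old mice. The Gzmk totals of 19 and 1 counts give a ratio of 23.8 per count sequenced, with a 95% exact binomial interval of 3.78 to 989.2 that covers counting error only. With all 6 groups in 1 fit, Ccl5 alone stayed called, at FDR = 0.017 against 0.088 for Cd8a and 0.0504 for Nkg7.

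In males 1 of the 10 members was called higher with age, where 3.69% of 13755 genes were called and 2.76% were called higher. Ccl5 rose by 2.71 ± 0.50 (FDR = 0.021). Nkg7 was at 1.77 ± 0.49 (FDR = 0.072) and Cd4 at 1.15 ± 0.32 (FDR = 0.073), and the other 7 members fell below the filter on low counts. The groups did not overlap for Cd3g, Cd4, Cd8b1, Nkg7 and Ccl5, 5 of 10 members higher in old livers, against 7.33% of the genes tested. Of these, Cd3g and Cd8b1 were untested, and Nkg7, with at most 8 counts in any young male, passed the filter through the old mice. Gzmk was at least 4.93-fold higher in old males, from 14 counts against none. The Ccl5 call was lost without old vehicle male 4, young male 2 or young male 4 (FDR up to 0.065). It was also lost with a replicate block (FDR = 0.12) and in limma fits of FPKM (FDR = 0.065 over 29 mice and 0.052 over 27), while DESeq2 called 4 members, Cd8a, Cd8b1, Nkg7 and Ccl5.

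The interaction of sex and age, the female log2 fold change minus the male, was tested for 7 members by edgeR and called for 0, with 3.92% of 14721 genes called. An unadjusted p under 0.05 was given by 1 member, Cd4 at -0.95 ± 0.42 (FDR = 0.19), and DESeq2 also called 0. Ccl5 was at -1.27 ± 0.64 (FDR = 0.26). Between young females and young males, edgeR and DESeq2 called 0 of the 10 members, 2 of which passed the filter, and edgeR gave no unadjusted p under 0.05, with 10.5% of 13875 genes called. Ccl5 was 0.84 ± 0.41 higher in young females on the log2 scale (FDR = 0.21). Cd3e alone did not overlap between the sexes, higher in young females, as did 7% of the genes tested, though Cd3e itself was below the filter.

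**Figure D3:**
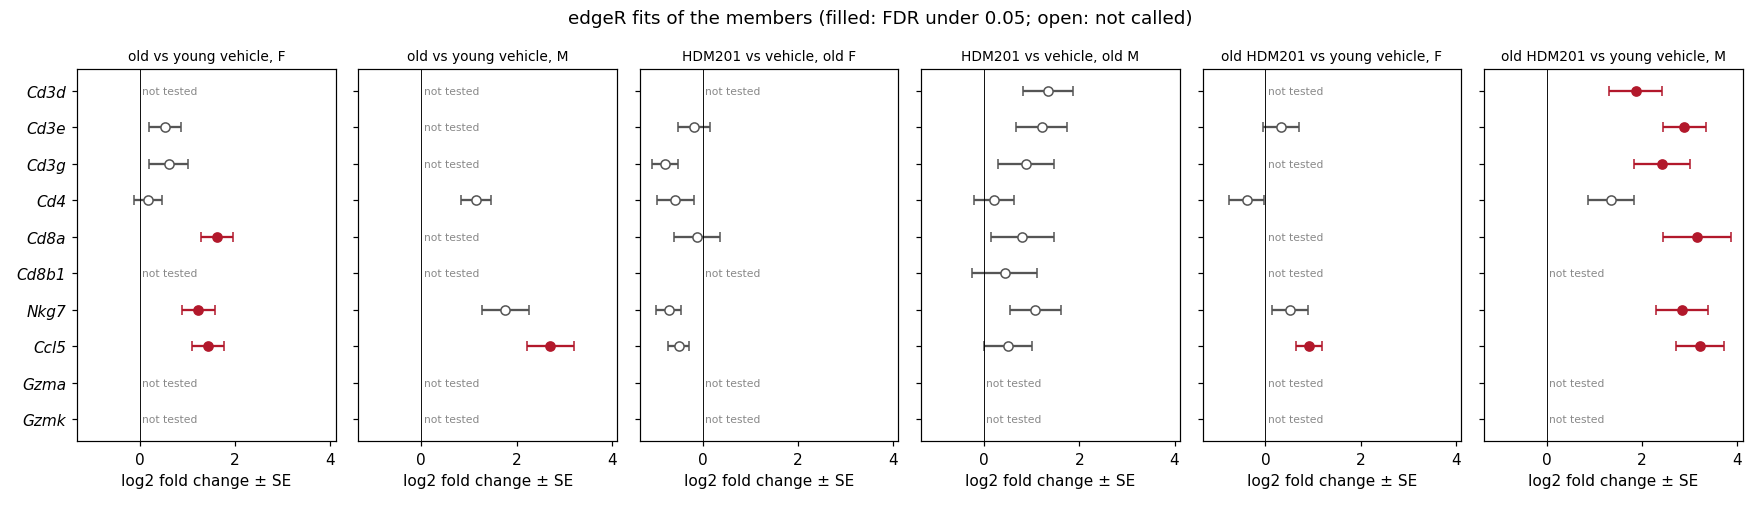
Log2 fold change with SE of each member in the 6 comparisons of 2 groups, by edgeR. Filled points passed an FDR of 0.05, open points did not, and members below the count filter carry the words not tested. Old HDM201 males against young males hold 6 filled points and both HDM201 against vehicle panels hold none.

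The effect of HDM201 was addressed by old treated against old vehicle livers. In females, edgeR called 0 of the 10 members, with 5.25% of 14445 genes called, and DESeq2 also called 0. Of 4 members below the count filter, Cd8b1 and Gzma had a higher mean CPM under HDM201, and Cd3d and Gzmk a lower one. The 6 members tested all had values below 0, and 3 had an unadjusted p under 0.05. Cd3g was at -0.80 ± 0.28 (FDR = 0.11), Nkg7 at -0.71 ± 0.26 (FDR = 0.13) and Ccl5 at -0.50 ± 0.22 (FDR = 0.20). Mean CPM went from 0.739 ± 0.207 to 0.428 ± 0.0647 for Cd3g and from 1.27 ± 0.157 to 0.786 ± 0.273 for Nkg7. Cd8a was at -0.12 ± 0.47 (FDR = 0.91), and HDM201 female 1, with 33 Cd8a counts, stood apart from the other 4. Cd3g alone did not overlap, lower in treated livers, as did 4.63% of the genes tested.

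In old males, edgeR called 0 of the 10 members, with 0.00709% of 14109 genes called, and DESeq2 also called 0. The 8 members tested all had values above 0, and 2 had an unadjusted p under 0.05: Cd3d at 1.34 ± 0.52 (FDR = 0.36) and Cd3e at 1.21 ± 0.53 (FDR = 0.40). Without old HDM201 male 1 these values were 0.90 ± 0.44 for Cd3d and 0.85 ± 0.51 for Cd3e. Cd8a moved from 0.80 ± 0.67 to 0.13 ± 0.58 without that mouse, Nkg7 from 1.08 ± 0.54 to 0.47 ± 0.40, and Ccl5 from 0.50 ± 0.50 to -0.01 ± 0.41. No member was free of overlap in either direction, against 4.03% of the genes tested. The interaction of sex and HDM201 was tested for 9 members and called for 0 by edgeR and by DESeq2, with 0.107% of 14974 genes called. An unadjusted p under 0.05 was given by 3 members, Nkg7 at -1.78 ± 0.64 (FDR = 0.15), Cd3g at -1.68 ± 0.69 (FDR = 0.20) and Cd3e at -1.39 ± 0.65 (FDR = 0.26), female minus male. Without old HDM201 male 1 the value for Nkg7 was -1.17 ± 0.48 (FDR = 0.24).

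Old HDM201 livers were also set against young vehicle livers. These comparisons share mice with those above, so their values are not separate evidence. In females 1 of the 10 members was called higher, with 26.8% of 13995 genes called and 14.2% called higher. Ccl5 rose by 0.92 ± 0.28 (FDR = 0.025), a call lost without HDM201 female 4 or young female 2 (FDR up to 0.059) and in the fit of all 6 groups (FDR = 0.12). Nkg7 was at 0.52 ± 0.37 (FDR = 0.33) and Cd4 at -0.40 ± 0.37 (FDR = 0.45). Cd8a and Ccl5 did not overlap, against 8.89% of the genes tested higher and free of overlap, though Cd8a itself was below the filter.

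In males 6 of the 10 members were called higher in old HDM201 than in young livers, with 19.2% of 14024 genes called and 11.6% called higher. Ccl5 rose by 3.21 ± 0.50 (FDR = 0.0030), Cd8a by 3.15 ± 0.71 (FDR = 0.012), Cd3e by 2.89 ± 0.45 (FDR = 0.0028), Nkg7 by 2.84 ± 0.54 (FDR = 0.0059), Cd3g by 2.42 ± 0.59 (FDR = 0.016) and Cd3d by 1.86 ± 0.55 (FDR = 0.037). Cd4 was at 1.35 ± 0.49 (FDR = 0.078), and Cd8b1, Gzma and Gzmk were not tested. Without old HDM201 male 1, Ccl5, Cd8a, Cd3e, Nkg7 and Cd3g kept their calls at 2.70 ± 0.34, 2.48 ± 0.54, 2.53 ± 0.35, 2.23 ± 0.32 and 1.76 ± 0.37, and Cd3d fell below the filter. The Cd3d call was lost without young male 1, 2 or 4 (FDR up to 0.083). Of the 10 members, Cd3d, Cd3e, Cd3g, Cd8a, Cd8b1, Nkg7, Ccl5 and Gzmk did not overlap (8 of 10, against 10.5% of the genes tested). These are unlike sets, as Cd8b1 and Gzmk were untested. Cd3d, Cd3e, Cd3g, Cd8a and Nkg7, with at most 10 counts in any young male, passed the filter through the old HDM201 males. Gzmk was at least 10.5-fold higher, from 35 counts against none.

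Ratios between members were tested, and are given on the log2 scale, per mouse after 0.5 was added to each count. Other ratios are of counts summed over the mice of a group, with nothing added. The summed ratio of Cd8a to Cd4 counts was 0.400 over the young females, 1.11 over old vehicle females and 1.48 over old HDM201 females. In males it was 0.447, 1.04 and 1.57. Without HDM201 female 1, which had 33 Cd8a and 4 Cd4 counts, the old HDM201 female value was 0.864, below that on vehicle. Without young male 2 or 3 the young male value was 0.690 or 0.282, and without old HDM201 male 1 the old HDM201 male value was 1.21. On the log2 scale the ratio was -1.22 ± 0.21 in young females and 0.14 ± 0.14 in old vehicle females, without overlap, a difference of 1.35 (p = 0.0079, the smallest the exact two-sided permutation test allows with 5 against 4, adjusted p = 0.063). In old HDM201 females it was 0.55 ± 1.49, a difference of 1.77 from young females (exact permutation p = 0.0079, adjusted p = 0.063). In males the age difference in this ratio was 0.98 (exact permutation p = 0.40). Gzma to Gzmk stood at 44 counts to 1 in young females and 30 to 19 in old vehicle females, and because Gzmk was at 0 in most young mice the size of its log2 ratio there was set by the added 0.5 and is not given. The log2 ratio of Ccl5 to Cd3e was 1.85 ± 0.44 in HDM201 males and 2.80 ± 0.44 in vehicle males, without overlap (exact permutation p = 0.016, adjusted p = 0.095). The ratio of Cd8b1 to Cd8a, the chains of 1 receptor, had unadjusted exact p-values of 0.29 or more in the 6 comparisons. None of the 24 ratio tests passed an adjusted p of 0.05, and 6 had an unadjusted p under 0.05, of which 2 were of Gzma to Gzmk.

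Members were also followed against Ptprc, which encodes CD45 and marks all leukocytes. Ptprc had 596 counts over young females, 1468 over old vehicle females and 835 over old HDM201 females, and 369, 895 and 1392 over the corresponding males. The summed Cd3e counts per Ptprc count were 0.0990, 0.0490 and 0.0994 in those female groups and 0.0434, 0.0570 and 0.106 in the male groups. For Ccl5 the same quantity was 0.193, 0.179 and 0.298 in females and 0.141, 0.368 and 0.412 in males. In 24 exact permutation tests of Cd3e, Cd8a, Nkg7 and Ccl5 against Ptprc, a choice made after the data had been seen, none passed an adjusted p of 0.05 (lowest 0.17), and 4 had an unadjusted p under 0.05.

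Other genes of the T cell receptor pathway moved as follows. Of 23 genes of the receptor complex and its signalling, 12 were tested in females with age, 6 were called higher and none lower. There 16.8% of all genes tested were called higher. Cd2, an adhesion receptor, was at 2.06 ± 0.38 (FDR = 0.0017) and Rhoh, a GTPase of T cell signalling, at 1.32 ± 0.25 (FDR = 0.0021). The median over the genes tested was 0.69, against 0.01 over all genes. In males 11 were tested and 1 was called, Trac, the receptor alpha constant region, at 1.73 ± 0.37 (FDR = 0.035), with a median of 1.07 against -0.01. There 2.76% of all genes were called higher. Genes with few counts can pass the filter through 1 group alone while others drop out, so these medians and shares do not compare like sets. In HDM201 against vehicle females 2 of 14 were called lower, Thy1 at -0.72 ± 0.17 (FDR = 0.037) and Rhoh at -1.14 ± 0.28 (FDR = 0.038), while edgeR called 0 of 16 in males, with 0 at an unadjusted p under 0.05. Of all genes tested, 419 of 14445 were called lower in those females and 0.00709% were called in those males. In old HDM201 against young males 11 of 15 were called higher, where 11.6% of all genes tested were. Tcf7, a transcription factor of naive and memory T cells, was at 0.90 ± 0.17 (FDR = 0.0064) and Cd2 at 2.80 ± 0.57 (FDR = 0.0080).

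Among 28 genes of cytotoxic granules and NK receptors, 7 were tested in females with age and 3 were called higher, including Slamf7 at 1.92 ± 0.30 (FDR = 0.00070) and Cd7 at 1.45 ± 0.35 (FDR = 0.0071). In males 3 were tested with age and edgeR called 0, with 2 at an unadjusted p under 0.05. Against young males, old HDM201 males had 4 of 7 called higher, including Cd7 at 1.92 ± 0.32 (FDR = 0.0037) and the granzyme Gzmb at 2.06 ± 0.56 (FDR = 0.025). Of all genes tested, 16.8% were called higher in females with age and 11.6% in old HDM201 against young males. With age in males 3.69% were called. Between young females and young males only 2 of the 28 genes passed the filter. Others can have passed it through the old groups, so these shares do not compare like sets. Ncr1, an NK cell receptor singled out after its values were seen, had 16, 26 and 22 counts over the female groups in the order young, old vehicle and old HDM201, and 5, 6 and 13 over the male groups. It is 1 gene of the 28 and does not stand for the other NK receptors of the list. Among 21 genes of T cell activation and memory, 10 were tested in females with age, 3 were called higher and 1 lower. The 1 called lower in old females was Tox, a factor of exhausted T cells, at -0.88 ± 0.26 (FDR = 0.020). Of 4 chemokines that draw T cells, Cxcl16, the ligand of CXCR6, rose with age by 0.96 ± 0.15 in females (FDR = 0.00061) and by 1.23 ± 0.19 in males (FDR = 0.010).

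Markers of other leukocytes moved in the same comparisons, and their part in the members' values was not tested. In females with age 8 of 8 pan-leukocyte genes, 11 of 12 macrophage and Kupffer cell genes and 10 of 11 tested B and plasma cell genes were called higher. Of the 13 B and plasma cell genes, 9 passed the filter between young females and young males, so some can have passed it through the old mice. In HDM201 against vehicle females 7 of 8 pan-leukocyte and 11 of 12 macrophage genes were called lower. Of all genes tested, 16.8% were called higher with age in females and 419 of 14445 were called lower under HDM201. The summed macrophage level was 328.8 to 485.3 CPM in young females, 535.7 to 1099 in old females on vehicle and 328.1 to 531.9 under HDM201. The summed pan-leukocyte level was 59.2 to 71.3, 106.1 to 168.9 and 76.1 to 90.2 CPM in the same groups. In males it was 39.5 to 55.9 CPM in young, 54.8 to 120.3 in old vehicle and 76.3 to 170.6 in old HDM201 livers. The B and plasma cell level was 20.1 to 42.9, 123.6 to 252.9 and 362.3 to 474.6 CPM in those male groups. In HDM201 against vehicle males edgeR called 0 of 12 tested B and plasma cell genes, with 0.00709% of all genes called. Old vehicle male 1, which has FPKM but no counts here, had 1589 FPKM summed over the B and plasma cell genes. The other old vehicle males had 173.5 to 384.1 FPKM, and old HDM201 male 1 had 1055. None of these 3 lists had a gene at 0 in an old group, and 1 B and plasma cell gene was at 0 in young males.

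How the members deviated from mouse to mouse within groups was compared by pairs. After the group means of log2(CPM + 1) were removed, 45 of 45 pairs had a Pearson r above 0 over 27 mice, with a median of 0.544. Of these, 19 had an adjusted p under 0.05 by permutation within groups, and 9 by Spearman rho. The highest was Cd3e with Cd8a, at r = 0.847 and rho = 0.729 (permutation adjusted p = 0.0027 and 0.0061). Without the 2 mice farthest from the median of Cd3e, r for this pair was 0.755, and without old HDM201 male 1 it was 0.772 (permutation adjusted p = 0.015). Nkg7 with Ccl5 was next at r = 0.795 and rho = 0.730 (permutation adjusted p = 0.010 and 0.017), and its r was 0.662 without that mouse (permutation adjusted p = 0.12). Cd3e with Cd8a was the 1 pair of the 45 still called without old HDM201 male 1, when the median r was 0.235 and 9 of the 45 pairs had an r below 0. The lowest was Cd3d with Cd4, at r = 0.080 (permutation adjusted p = 0.84). The other called pairs were not called without that mouse.

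**Figure D4:**
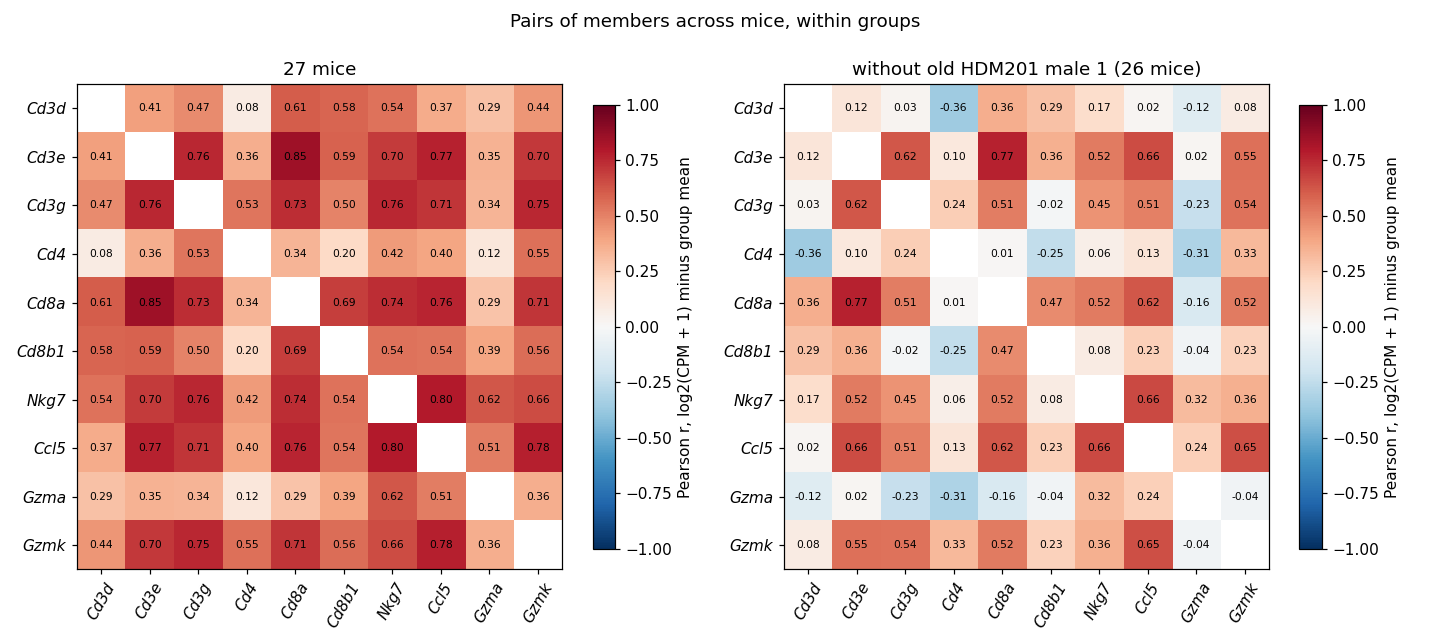
Pearson r between members across mice after group means of log2(CPM + 1) were removed, for all 27 mice (left) and for 26 mice without old HDM201 male 1 (right). The median r over 45 pairs is 0.544 on the left and 0.235 on the right, and Cd3e with Cd8a is highest in both (0.847 and 0.772).

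The 8 genes outside the set whose within-group deviations were most like the mean of the members' deviations were taken from 15284 genes. Their Pearson r over the 27 mice, which share library and depth, was 0.895 for the chemokine Ccl4, 0.873 for Cd5, 0.871 for Trac, 0.868 for Cd6, 0.857 for Cd247, which encodes the CD3 zeta chain, 0.839 for Trbc2, the receptor beta constant region, 0.834 for Spn, which encodes leukosialin, and 0.819 for Tbc1d10c. Without old HDM201 male 1 these lay between 0.572 for Trbc2 and 0.752 for Spn, and only Ccl4 and Spn were then still among the 8 most like, with the other 6 at ranks 63 to 199. The median r was 0.719 over 18 receptor and signalling genes, 0.445 over 8 pan-leukocyte genes, 0.154 over 12 macrophage genes and -0.01 over all genes. Without that mouse these medians were 0.501, 0.570, 0.469 and -0.01, so the pan-leukocyte genes then lay above the receptor genes. Over 4 T cell attracting chemokines the median went from 0.455 to 0.562, and over 4 monocyte genes from 0.343 to 0.500. Over 14 cytotoxic and NK genes it was 0.459 with all mice, with single genes from -0.375 to 0.895.

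Deposited FPKM (fragments per kilobase, scaled to library size) covered the 2 males without counts here. Over the 9542 genes above 1 FPKM in every mouse, the median shift of a mouse from the others lay between -0.21 and 0.30 on the log2 scale, with old vehicle male 1 at 0.30. Columns summed to 690769 to 6010507 FPKM. Old vehicle male 1 had more FPKM than the other 4 old vehicle males for 10 of the 10 members and was the highest of 29 mice for 5 of them. Its Ccl5 value was 62.2 FPKM, against 5.30 to 22.2 in the other 4 old vehicle males and 8.66 to 46.7 in the old HDM201 males. Its Gzma value was 5.61 FPKM, against 0.0665 to 0.585 and 0.339 to 2.20. With that mouse left out, HDM201 males had the higher mean FPKM for 9 of the 10 members, and with it included for 5 of the 10. Mean Ccl5 was 20.9 FPKM in HDM201 males, 13.4 in 4 vehicle males and 23.2 in 5. For Cd8b1, Ccl5, Gzma and Gzmk the order of the male vehicle and HDM201 means thus turned with that mouse. The same mouse had 469.5 FPKM summed over the pan-leukocyte genes, against 27.2 to 67.2 in the other 4 old vehicle males, and the lowest hepatocyte sum of the 29 mice, and the part of these in its member values was not tested. Young male 5 had 2.74 FPKM of Ccl5, against 0.953 to 2.75 in the other young males, and 509.4 FPKM summed over neutrophil genes, against 0.778 to 5.46.

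**Figure D5:**
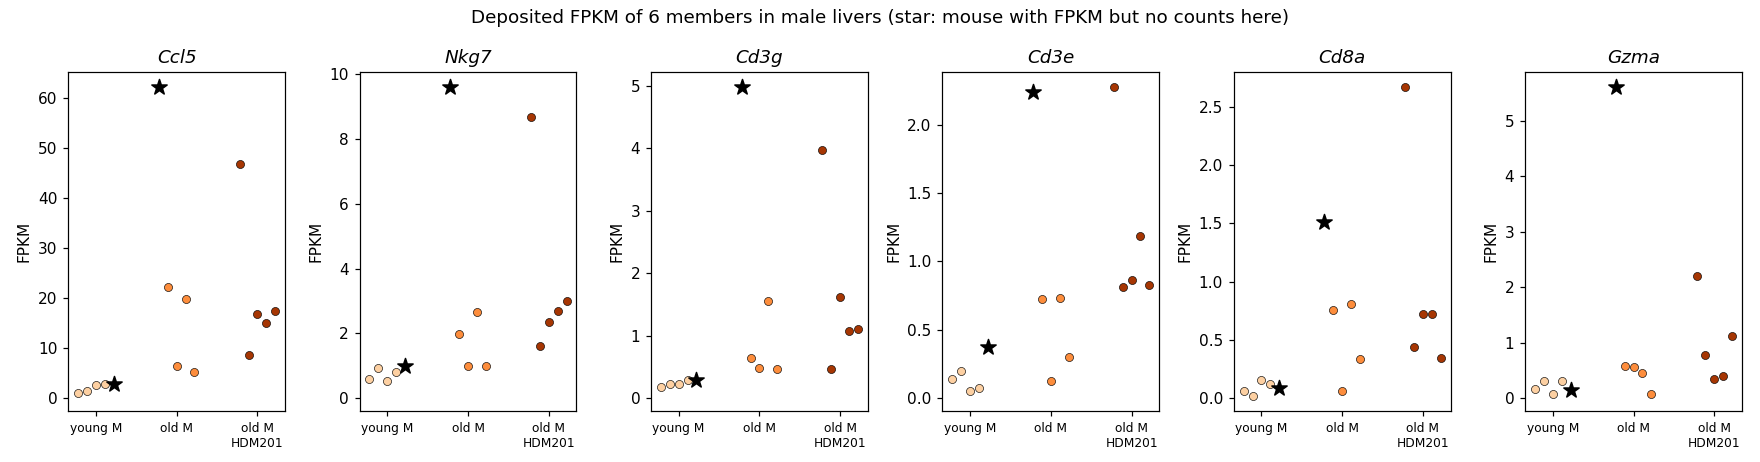
Deposited FPKM of Ccl5, Nkg7, Cd3g, Cd3e, Cd8a and Gzma in male livers by group, with 1 point per mouse and stars for the 2 mice that have FPKM but no counts here. The star of the old vehicle males is the highest mouse for Ccl5 (62.2 FPKM), Nkg7 (9.62 FPKM), Cd3g (4.99 FPKM) and Gzma (5.61 FPKM).

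FPKM tracked counts unevenly between members. Among mice with 5 or more counts, FPKM per CPM varied 1.60-fold for Ccl5 and for Cd8a, and 28.1-fold for Cd4. HDM201 females 3 and 4 each had 14 Cd4 counts but 3.59 and 0.291 FPKM. Values of Cd4 in FPKM are therefore less certain than its counts.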

How the data were processed

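Whole livers of 29 mice were profiled by polyA RNA-seq. According to the study's methods and the labels, reads were aligned to mm10 with STAR, the authors counted reads per gene with HTSeq, and FPKM values were made by the authors with Cufflinks. Versions, the strand setting and the annotation release are not given in the sources used here. The deposited counts are whole reads per gene for 27 mice (16485900 to 23570458 per mouse), and the deposited FPKM cover 29.

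Groups were taken from the labels. Counts were normalised by TMM and tested with edgeR 4.0.16 (quasi-likelihood, R 4.3.3) over all genes with enough counts (filterByExpr, minimum count 10, total 15), using only the groups compared, or all 4 groups for an interaction. Fold changes are log2 ± SE, and FDR is Benjamini-Hochberg over all genes tested. CPM are counts scaled to the library total times its TMM factor (0.921 to 1.10). DESeq2 1.42.0, no filter, RLE size factors, 1 fit of all 6 groups, a replicate block and leaving out each mouse were alternatives. The FPKM fits with limma 3.58.1 on log2(FPKM + 0.1), the ratios to Ptprc, the summed ratios without each mouse and the pairs without old HDM201 male 1 were added after seeing the data. Ratios were tested by exact two-sided permutation, with 0.5 added to each count, and pairs by 100000 permutations within groups (scipy 1.17.1), two-sided. Intervals and floors cover counting error only.

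The members and lists were chosen with earlier results of these data known. Of the lists, 157 of 159 genes were found. Named genes were every member, at most the 2 called genes of a list with the lowest FDR in each direction, the 8 genes most like the members, and Xist, Ddx3y and Alb, and Ncr1 and Ptprc were added after their values were seen. A gene that this rule names is not reported here. Same-numbered mice came from separate animals and did not deviate together (28 correlations, -0.30 to 0.22, 6 above 0.1). No mice of a group agreed within sampling noise (chi-square per gene 12.8 to 111.5 over 48 pairs). The scripts were tested on simulated data.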

Additional observations from a re-analysis of the deposited data

Results flagged for a closer look

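A mouse far from the others of its group was found in 8 of 59 gene and group sets tested. The nominal rate of the rule, about 1 in 20 sets, is for independent normal values. These sets share mice and hold low counts, so that rate does not apply to them. Of the 8, 5 were old HDM201 male 1. That mouse had 14.0 CPM of Ccl5 (next in its group 5.30), 6.25 of Cd8a (2.24), 5.97 of Nkg7 (1.88), 3.80 of Cd3g (1.5) and 3.07 of Cd3e (1.5). Old HDM201 female 1 had 1.72 CPM of Cd8a, with the next at 0.613. Young vehicle female 3 had 0.519 CPM of Cd8b1, with the next at 0.0491. Young vehicle female 5 had 0.0491 CPM of Gzmk, which is 1 count, with the others at 0.

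Old vehicle male 1, which has FPKM but no counts here, had the highest value of 29 mice for 5 members. These were Ccl5 at 62.2 FPKM (next 46.7), Nkg7 at 9.62 (8.68), Gzma at 5.61 (2.20), Cd3g at 4.99 (3.97) and Gzmk at 1.37 (0.956).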

How the results depend on the processing

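Of 1216 values recomputed for single members and ratios, 1163 kept their direction and their side of the threshold, 9 passed it newly, 15 no longer passed it and 29 changed sign, and for the last the cause was not tested. For age in males (1 member called), DESeq2, no filter and 1 fit of all 6 groups called 4 each, whereas an FDR of 0.01, the replicate block and both FPKM fits called 0. For age in females (3 called), the fit of all 6 groups called 1. For old HDM201 against young females (1 called), DESeq2 and no filter called 2, while an FDR of 0.01 and the fit of all 6 groups called 0. For old HDM201 against young males (6 called), an FDR of 0.01 left 3. Leaving out 1 mouse gave 2 to 3 calls for age in females, 0 to 2 in males, 0 to 1 for old HDM201 against young females and 5 to 6 in males. Same-numbered mice did not pair, and the replicate block gave 3 calls for age in females, 0 in males, and 5 for old HDM201 against young males. Of the 19 pairs called, 1 was left without the 2 farthest mice and 1 without old HDM201 male 1.

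The values that changed sign were uncalled. For HDM201 in males, Cd4 was -0.22 under the replicate block, -0.37 and -0.20 in the FPKM fits of 29 and 27 mice, and -0.090 to 0.43 without 1 mouse, Cd8b1 was -0.33 under the block and -0.18 by FPKM of 29 mice, and Ccl5 was -0.0079 to 0.83 without 1 mouse. Cd8a for HDM201 in females ranged from -0.75 to 0.076 and Cd4 between young sexes from -0.24 to 0.22 without 1 mouse. By FPKM, Cd4 was 0.68 for old HDM201 against young females and 0.21 and 0.32 for the interaction of sex and age, for which Nkg7 was 0.087 over 27 mice. Cd8b1 for the interaction of sex and HDM201 was 0.33 under the block and -0.79 to 0.42 without 1 mouse. Without 1 mouse, the log2 ratio differences ranged for Cd8a to Cd4 from -0.17 to 0.74 (HDM201, females), for Cd8b1 to Cd8a from -0.098 to 1.08 (age, males), -0.43 to 0.51 (HDM201, females, 0.064 with 1 added to counts) and -0.88 to 0.30 (old HDM201 against young males), for Gzma to Gzmk from -1.0 to 0.66 (HDM201, males) and for Ccl5 to Cd3e from -0.35 to 0.0086 (HDM201, females). Members below the filter on low counts have no fit with the filter in place, and in young livers Gzmk was at 0 or 1 count.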

Other observations

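Of 7 genes of lymphoid aggregates, 3 were tested in females with age and 3 were called higher in old livers by edgeR. Of all genes tested, 16.8% were called higher. The list summed to 1.52 to 2.46 CPM in young females, with 3 genes at 0. Genes that low can pass the filter through the old mice, where they are high, so these shares do not compare like sets. Cxcl13, the chemokine that draws B cells to follicles, was at 2.83 ± 0.71 (log2 fold change ± SE, FDR = 0.0095), its receptor Cxcr5 at 2.64 ± 0.60 (FDR = 0.0055) and Ltb, a lymphotoxin chain, at 1.27 ± 0.26 (FDR = 0.0032). In old females given HDM201, Cxcl13 was lower by edgeR at -3.22 ± 0.76 (FDR = 0.034), the 1 gene of this list called there, with 419 of 14445 genes called lower. The summed level of the list was 3.39 to 20.0 CPM in old vehicle females and 2.32 to 3.80 CPM in old HDM201 females, which overlap.

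Other myeloid genes were also higher with age. In females edgeR called 3 of 3 tested neutrophil genes (6 listed), 2 of 3 monocyte genes (4 listed) and 3 of 6 dendritic cell genes (9 listed) higher. Between young females and young males only 1, 2 and 4 genes of these lists passed the filter. Others can have passed it through the old mice, so these shares and those over all genes do not compare like sets. Of all genes tested, 16.8% were called higher with age in females and 2.76% in males. S100a9, an alarmin of neutrophils, was at 4.00 ± 0.70 (FDR = 0.0013), Ccr2, the monocyte chemokine receptor, at 1.76 ± 0.26 (FDR = 0.00045) and Itgax, which encodes CD11c, at 2.39 ± 0.26 (FDR = 8.5e-05). In males 0 of 2 neutrophil (2 at an unadjusted p under 0.05), 1 of 2 monocyte and 1 of 4 dendritic cell genes were called with age by edgeR, namely Ccr2 at 2.00 ± 0.47 (FDR = 0.0496) and Itgax at 2.23 ± 0.42 (FDR = 0.023). Of the gamma delta T cell genes, 2 were tested with age in each sex and edgeR called 0, with 0 in females and 1 in males at an unadjusted p under 0.05. In either direction, 31.8% of all genes tested were called in females and 3.69% in males.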
